A study of Mus musculus with 15 samples.

Results

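The Cyp4 fatty acid hydroxylases described here are Cyp4a10, Cyp4a12a, Cyp4a12b, Cyp4a14 and Cyp4b1, 5 of the 54752 genes in the count table. They were chosen by symbol, from earlier results of these data on Cldn10a knockout against wild type in proximal tubule, and each was found in the table by its Ensembl identifier. That knockout contrast is therefore described here without a test of the members. RNA was sequenced from tubules isolated from mouse kidneys, in 15 libraries of 4 groups: proximal convoluted tubule of genotype WT (n = 4) and Cldn10a KO (n = 3), and distal convoluted tubule of genotype WT (n = 4) and Cldn10a KO (n = 4). The labels give no treatment for any group, and the sources used here do not give strain, sex, age or the design of the knockout allele. The labels give pools of 10 proximal and about 20 distal tubules for a kidney. They do not say that each library came from its own animal, so every p-value below rests on the spread between libraries, which may be technical.

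Members of the Cyp4 family are membrane-bound cytochrome P450 enzymes that add a hydroxyl group at or near the methyl end of a fatty acid, taking electrons from NADPH through cytochrome P450 reductase. In the kidney the Cyp4a enzymes are known for turning arachidonic acid into 20-HETE, a lipid that acts on vessel tone and on salt transport along the tubule, and Cyp4a12a is known as a main producer of it in the mouse. Cyp4a10 and Cyp4a14 are classic targets of the fatty acid receptor PPAR-alpha, Cyp4a12a is known for its higher level in male than in female kidney, and Cyp4b1 acts on shorter fatty acids and on many foreign compounds. Alcohol and aldehyde dehydrogenases carry the hydroxylated acids on to dicarboxylic acids, which peroxisomes shorten.

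All 5 members lie in 1 cluster on chromosome 4 (GRCm38, GENCODE M21). Cyp4a12a (ENSMUSG00000066071) spans chr4:115299046-115332815 on the plus strand, Cyp4a12b (ENSMUSG00000078597) chr4:115411624-115439034 on the plus strand, Cyp4a14 (ENSMUSG00000028715) chr4:115486200-115496142 on the minus strand, Cyp4a10 (ENSMUSG00000066072) chr4:115518264-115533649 on the plus strand and Cyp4b1 (ENSMUSG00000028713) chr4:115624725-115647723 on the minus strand. Cyp4a31 and Cyp4a32, which are no members, and the pseudogenes Cyp4b1-ps1 and Cyp4b1-ps2 lie between Cyp4a10 and Cyp4b1.

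The members differ in how far their reads can be told apart, and the sequences show it. The first set is 77 coding bases of exon 11 that end in the first 17 of the 30 bases of the signature around the cysteine that binds the heme. The codon of that cysteine lies beyond the stretch, which is shown because it can be compared at the same place in all these genes. Capitals mark bases that differ from Cyp4a12a.
Cyp4a12a: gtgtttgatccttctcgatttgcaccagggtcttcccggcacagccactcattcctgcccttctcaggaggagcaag
Cyp4a12b: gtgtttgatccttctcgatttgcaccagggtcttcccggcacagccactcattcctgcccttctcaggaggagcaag
Cyp4a10: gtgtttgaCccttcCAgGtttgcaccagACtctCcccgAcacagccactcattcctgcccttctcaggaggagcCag
Cyp4a31: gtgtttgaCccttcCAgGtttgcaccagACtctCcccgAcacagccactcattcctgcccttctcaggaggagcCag
Cyp4a32: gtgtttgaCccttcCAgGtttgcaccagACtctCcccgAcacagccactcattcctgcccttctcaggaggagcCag
Cyp4a14: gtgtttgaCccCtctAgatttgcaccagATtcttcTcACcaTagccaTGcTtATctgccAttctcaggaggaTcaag
Cyp4b1: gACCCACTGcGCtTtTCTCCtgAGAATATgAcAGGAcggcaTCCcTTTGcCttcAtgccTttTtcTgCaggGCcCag
These stretches lie at chr4:115328926-115329002 (plus strand) for Cyp4a12a, chr4:115435180-115435256 (plus) for Cyp4a12b, chr4:115529442-115529518 (plus) for Cyp4a10, chr4:115574890-115574966 (plus) for Cyp4a31, chr4:115614820-115614896 (plus) for Cyp4a32, chr4:115489789-115489865 (minus) for Cyp4a14 and chr4:115625646-115625722 (minus) for Cyp4b1. Cyp4a12b did not differ from Cyp4a12a at any of the 77 bases. Cyp4a10, Cyp4a31 and Cyp4a32 each differed from Cyp4a12a at 9 bases, Cyp4a14 at 16 and Cyp4b1 at 44. The family thus shows 4 sequence groups here, namely the Cyp4a12 pair, the trio of Cyp4a10, Cyp4a31 and Cyp4a32, Cyp4a14, and Cyp4b1.

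The second set is the 90 coding bases of exon 6 (bases 661 to 750 of the coding sequence) at which Cyp4a12a and Cyp4a12b differ most, shown because reads over such bases can be assigned to 1 gene of the pair. Capitals mark the 7 bases at which Cyp4a12b differs.
Cyp4a12a: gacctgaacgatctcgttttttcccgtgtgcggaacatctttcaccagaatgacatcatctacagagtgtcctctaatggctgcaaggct
Cyp4a12b: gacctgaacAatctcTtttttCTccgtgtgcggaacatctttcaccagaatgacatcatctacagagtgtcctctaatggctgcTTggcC
The stretch lies at chr4:115326659-115326748 in Cyp4a12a and at chr4:115432912-115433001 in Cyp4a12b, both on the plus strand. Over the whole coding sequence the pair differed at 23 of 1524 bases (98.5% identity) and at 11 of 508 residues (97.8%), and the longest identical coding run was 342 bases.

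The third set is the same kind of stretch for the trio around Cyp4a10, 90 coding bases of exon 2 (bases 190 to 279). Capitals mark bases that differ from Cyp4a10, 4 in Cyp4a31 and 13 in Cyp4a32.
Cyp4a10: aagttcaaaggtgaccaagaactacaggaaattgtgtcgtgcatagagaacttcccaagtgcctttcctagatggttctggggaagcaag
Cyp4a31: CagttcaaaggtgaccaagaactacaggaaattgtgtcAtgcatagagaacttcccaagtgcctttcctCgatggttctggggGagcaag
Cyp4a32: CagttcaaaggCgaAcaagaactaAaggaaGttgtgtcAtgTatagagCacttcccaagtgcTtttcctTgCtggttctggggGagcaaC
These lie at chr4:115519630-115519719 in Cyp4a10, chr4:115565010-115565099 in Cyp4a31 and chr4:115602260-115602349 in Cyp4a32, on the plus strand. Coding identity of Cyp4a10 was 96.6% with Cyp4a31 and 97.2% with Cyp4a32. Cyp4a14 shared 75.7 to 77.3% of its aligned coding bases with the other Cyp4a genes named here, and protein identity of Cyp4b1 with the Cyp4a genes was 51.7 to 53.8%.

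As a measure of ambiguity, every 50-base window of a gene's annotated transcripts was searched for in the transcripts of all other genes. Of the windows of Cyp4a12a 48.9% also occurred in Cyp4a12b and in no other gene, and with 100-base windows 35.8% did. For Cyp4a10 29.8% of 50-base windows and 12.2% of 100-base windows occurred in Cyp4a31 or Cyp4a32. Cyp4b1 shared 8.26% of its 50-base windows with its 2 pseudogenes, and Cyp4a14 shared 0.235%, all with the pseudogene Cyp4a30-ps. The sources used here give neither the read length nor how reads with several matches were treated. The split of counts within the Cyp4a12 pair and within the Cyp4a10 trio is therefore uncertain, while Cyp4a14 and Cyp4b1 are little touched.

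**Figure D1:**
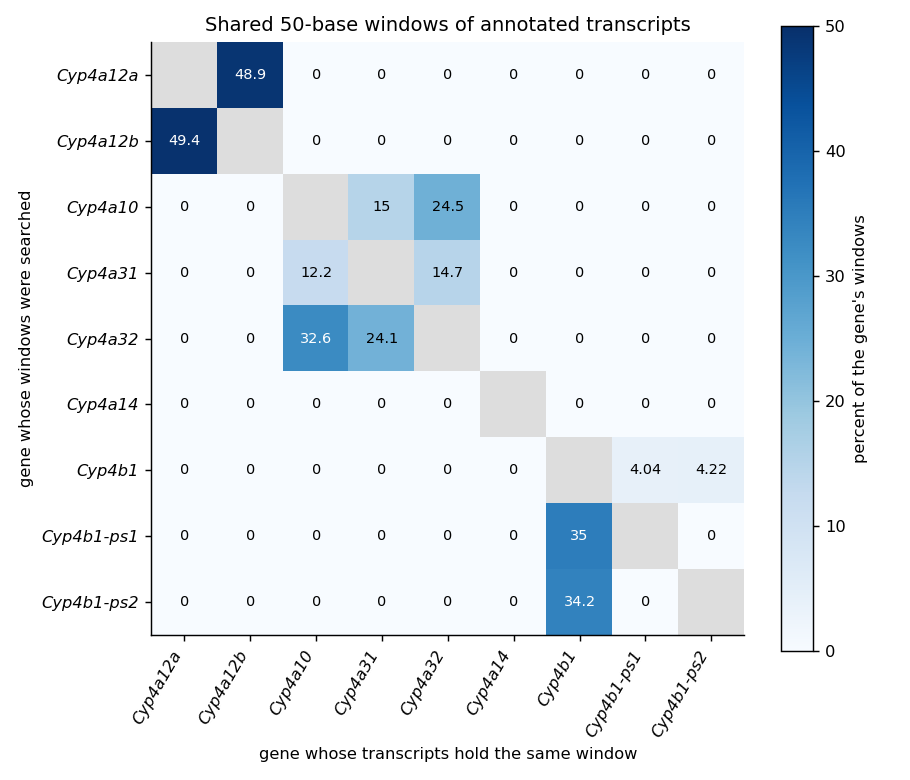
Percent of each gene's 50-base transcript windows (rows) that also occur in transcripts of another gene (columns), for 9 genes of the Cyp4 cluster; grey marks the gene itself. Sharing falls into 3 blocks, with 48.9 and 49.4% inside the Cyp4a12 pair and 12.2 to 32.6% inside the trio of Cyp4a10, Cyp4a31 and Cyp4a32.

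The libraries held 28729339 to 51764746 counts, of which 57.8 to 71.6% were mitochondrial ribosomal RNA and 8.02 to 19.7% came from nuclear protein-coding genes. Cldn10 had 541 to 1514 counts in the wild-type proximal libraries and 0 in all 3 knockout ones, and it checks the labels there. In distal tubule it does not, since wild type had 8, 3, 4 and 22 counts and the libraries labelled knockout had 0, 12, 24 and 0. The 8 proximal markers summed to 3778 to 4765 scaled CPM (counts relative to the library total) in proximal and 7.30 to 15.0 CPM in distal libraries, while the 9 distal convoluted tubule markers summed to 4168 to 5288 CPM in distal and 4.42 to 7.50 CPM in proximal libraries. The 2 highest-numbered proximal libraries, wild-type replicate 6 and knockout replicate 7, carry library numbers of another series than the rest, and results are also given without them where they move.

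In wild-type proximal tubule Cyp4b1 was the main Cyp4 transcript. Per kilobase of merged exons (CPM per kb, the scale used to compare genes) its level was 173, 238, 190 and 285 in replicates 1, 2, 3 and 6, a mean of 222 ± 50.6 (SD, n = 4). That was 71.6% ± 1.98 (SD, n = 4) of the summed level of the 5 members and the 22 other Cyp4 genes and pseudogenes of the table. Cyp4a10 followed at 14.1 ± 7.88 CPM per kb (6.84 to 25.1), then Cyp4a12a at 9.37 ± 2.08 (6.26 to 10.6), Cyp4a12b at 6.57 ± 0.490 (5.89 to 6.95) and Cyp4a14 at 0.549 ± 0.696 (0.0656 to 1.58; SD, n = 4 each). Neighbours in the middle of this order overlapped between libraries, Cyp4a10 with Cyp4a12a and Cyp4a12a with Cyp4a12b, whereas Cyp4b1 stood above and Cyp4a14 below all others in every library. Of the relatives outside the members, Cyp4a31 reached 14.4 ± 3.19 CPM per kb, a level inside the range of Cyp4a10, and Cyp4a32 reached 1.87 ± 0.905 (SD, n = 4 each). The pseudogene fragments Cyp4b1-ps1 and Cyp4b1-ps2, of 315 and 333 annotated bases, stood at 15.2 ± 3.58 and 24.2 ± 3.44 CPM per kb, and 35.0 and 34.2% of their own 50-base windows match Cyp4b1.

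The comparison of proximal with distal tubule in wild type asks where along the nephron the enzymes are transcribed. All 5 members were higher in every proximal than in every distal library. Cyp4b1 also passed the count filter on the distal wild-type libraries alone. Cyp4a12a fell short of it in distal replicate 1 (5 counts). It thus entered only with proximal libraries, in which it is high, and is given with no p. Cyp4a12b, Cyp4a10 and Cyp4a14 did not pass it within distal tubule. They entered this comparison only through the group in which they are high, had to differ, and are given as values with no p. Cyp4b1 had 390, 538, 429 and 644 CPM in the proximal replicates 1, 2, 3 and 6 and 1.28, 1.72, 3.40 and 1.73 CPM in the distal replicates 1 to 4. The 2 sets of libraries were far apart, and the log2 difference was 7.97 ± 0.293 (SE; limma adjusted p = 6.08e-12). Cyp4a12a had 24.9, 25.0, 25.7 and 15.2 CPM in proximal and 0.172, 0.457, 0.619 and 0.492 CPM in distal libraries, which gave a difference of 5.68 ± 0.485 on the log2 scale (SE). Cyp4a12b had 16.7, 16.5, 15.6 and 14.1 CPM against 0.0689, 0.114, 0.103 and 0.235 CPM, a difference of 6.83 ± 0.481 on that scale (SE). Its 4 proximal values were close together, with an SD of 1.17 CPM around a mean of 15.7 CPM.

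The other members were the more variable ones. Cyp4a10 had 22.2, 29.4, 14.4 and 52.9 CPM in proximal and 0.138, 0.183, 0 and 0.0214 CPM in distal libraries (log2 difference 8.78 ± 1.51 SE). Cyp4a14, the scarcest member, had 0.744, 0.684, 0.171 and 4.12 CPM against 0, 0.0915, 0.103 and 0 CPM (log2 difference 4.26 ± 1.32 SE). Its proximal counts were 36, 33, 9 and 181, so replicate 6 alone held most of them.

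Of all 13616 genes tested between the wild-type segments, 23.6% were called higher in proximal tubule and 22.7% stood fully apart in that direction. This is the background for Cyp4b1, the only member given with a p, which was called. The proximal wild-type libraries also entered the contrast on which the members were chosen. In knockout tubules all 5 members were likewise higher in every proximal than in every distal library, where 21.7% of the 13834 genes stood apart that way. The distal levels are low but not all alike. As a share of the proximal mean, the wild-type distal libraries held 0.406% ± 0.188 of Cyp4b1 and 0.288% ± 0.299 of Cyp4a10, inside the range of the 8 proximal markers (0.0542% for Gatm to 0.595% for Lrp2). They held 1.92% ± 0.831 of Cyp4a12a, 0.830% ± 0.462 of Cyp4a12b and 3.41% ± 3.95 of Cyp4a14 (SD, n = 4 each), above that range of marker means. In the libraries labelled knockout, as a share of the knockout proximal mean, the same members stood at 0.511% ± 0.338, 0.460% ± 0.209 and 0.455% ± 0.910, inside the marker range there (0.0536 to 0.562%). Cyp4b1 at 0.176% was also inside it, and Cyp4a10 at 0.0393% was below it. The proximal mean, by which the shares are divided, was higher in the knockout for each member. Distal Cyp4a12b was 0.130 CPM in wild type and 0.145 CPM in the knockout, so its lower share came from the proximal mean. The wild-type distal share of Cyp4a14 rests on 8 counts in all 4 libraries, that of Cyp4a12b on 22 and that of Cyp4a12a on 72. Whether these counts come from distal cells or from proximal cells carried over was not tested.

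**Figure D2:**
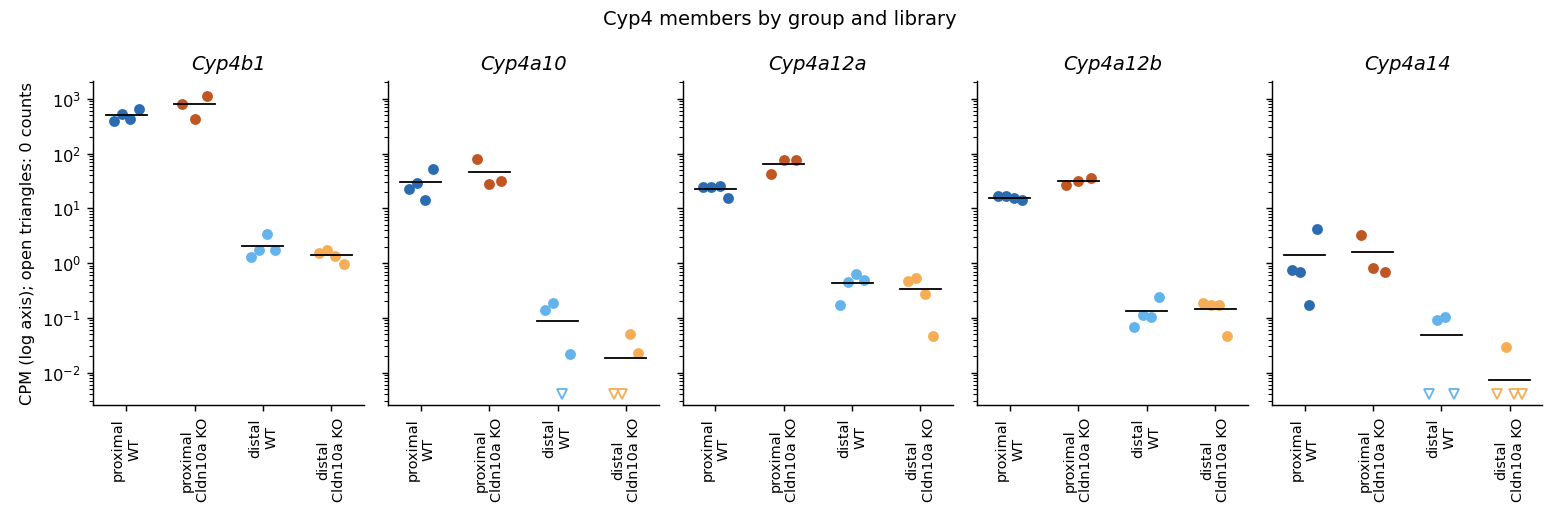
Level of each member in CPM (log axis) in the 15 libraries by group; points are libraries, lines are group means, and open triangles at the bottom mark libraries with 0 counts. Every proximal library of either genotype lies above every distal library for all 5 members, and Cyp4a12a and Cyp4a12b are the members whose proximal knockout points all lie above the wild-type ones.

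The knockout effect in distal tubule is the contrast that shares no library with the choice of members. No member was called there, which does not show that levels were equal. The genotype of these libraries rests on the labels, because Cldn10 does not separate them. Its counts are for the whole gene and do not single out Cldn10a. Cyp4b1 had 1.55, 1.71, 1.34 and 0.968 CPM in knockout replicates 5 to 8, which overlapped the wild-type values given above. The log2 difference of Cyp4b1 was -0.52 ± 0.322 (SE; limma adjusted p = 0.746), and that of Cyp4a12a was -0.85 ± 0.684 (SE; limma adjusted p = 0.808). The Cyp4a12a value rested on knockout replicate 8, without which it was -0.08, and with another library left out it ran to -1.20. Without replicates 6 and 7, the libraries labelled knockout that hold Cldn10 counts, the differences were -0.67 for Cyp4b1 and -1.50 for Cyp4a12a (limma adjusted p = 0.709 and 0.738), an alternative chosen after seeing the data. Cyp4a12a stood at 0.472, 0.523, 0.274 and 0.0461 CPM in the knockout, overlapping wild type. The other members had 22 (Cyp4a12b), 3 (Cyp4a10) and 1 (Cyp4a14) counts in all 4 knockout libraries and 22, 13 and 8 in wild type, too few for the filter. A distal library with 0 counts allows up to 0.0642 to 0.103 CPM (3 counts), depending on its depth, for counting error only. Cyp4a10 and Cyp4a14 thus lie at the limit of what these libraries can show. Exact two-sided permutation tests of the CPM over the 70 arrangements of 4 against 4 gave p = 0.229 for Cyp4b1, 0.514 for Cyp4a12a, 0.771 for Cyp4a12b, 0.343 for Cyp4a10 and 0.429 for Cyp4a14, with 0.643 as the lowest value adjusted over the 5. The smallest p this design allows is 0.0286 before adjustment. Over all 12968 genes limma called 0 (percent called 0), with 924 at an unadjusted p under 0.05, and 3.82% of genes stood fully apart, none of them a member. In the authors' deposited table for distal tubule the log2 fold change was -0.549 for Cyp4b1 (p = 0.116) and -0.424 for Cyp4a12a (p = 0.538), with no adjusted p for either.

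In proximal tubule the contrast that chose the members is given as values. Cyp4a12a had 41.8, 75.0 and 76.1 CPM in knockout replicates 4, 5 and 7, against 24.9, 25.0, 25.7 and 15.2 CPM in wild type. The groups did not overlap, and the means were 64.3 ± 19.5 (SD, n = 3) and 22.7 ± 5.03 CPM (SD, n = 4), a ratio of 2.83. Cyp4a12b had 26.2, 31.8 and 36.5 CPM in the knockout against 14.1 to 16.7 CPM in wild type, again without overlap, with means of 31.5 ± 5.15 (SD, n = 3) and 15.7 ± 1.17 CPM (SD, n = 4). The log2 differences were 1.47 ± 0.236 and 0.98 ± 0.163 (SE). Because the pair shares so many transcript windows, its sum is less open to misassigned reads, and it was 68.0, 107 and 113 CPM in the knockout against 29.3 to 41.5 CPM in wild type. The count ratio of Cyp4a12a to Cyp4a12b was 1.60, 2.36 and 2.09 in the knockout and 1.49, 1.51, 1.65 and 1.08 in wild type, so the groups overlapped in how the pair was split.

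The other members did not separate the genotypes. Cyp4b1 had 806, 433 and 1129 CPM in knockout replicates 4, 5 and 7 against 390 to 644 CPM in wild type, with replicate 5 inside the wild-type range. Its means were 790 ± 348 (SD, n = 3) and 500.2 ± 114 CPM (SD, n = 4), and the log2 difference was 0.57 ± 0.273 (SE). Cyp4a10 had 78.9, 28.0 and 32.1 CPM in the knockout, of which replicate 4 alone was above the highest wild-type library at 52.9 CPM, and its log2 difference was 0.63 ± 0.399 (SE). Cyp4a14 had 3.29, 0.820 and 0.683 CPM in the knockout, and the wild-type range of 0.171 to 4.12 CPM enclosed all 3 (log2 difference 0.66 ± 0.797 SE). The direction for Cyp4a14 turned without wild-type replicate 3 (-0.12) or knockout replicate 4 (-0.01). In level per kilobase the knockout order was Cyp4b1 (350 ± 154), Cyp4a12a (26.6 ± 8.04), Cyp4a10 (22.0 ± 13.4), Cyp4a12b (13.1 ± 2.15) and Cyp4a14 (0.614 ± 0.564; SD, n = 3 each), with Cyp4a12a and Cyp4a10 overlapping and in the opposite order to wild type. Cyp4b1 remained the main transcript at 69.6% ± 5.99 of the family sum (SD, n = 3).

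Across all 13229 genes of this proximal contrast, 0.0983% were called higher in the knockout, 4.44% stood fully apart in that direction and 3.54% in the other. Nothing is read from these shares for the members, because this contrast chose them. With 1 library left out in turn, the log2 difference of Cyp4a12a ran from 1.29 to 1.73 and that of Cyp4a12b from 0.85 to 1.08. Without both libraries of the other number series they were 1.14 and 0.82. Whether the genotype effect differs between proximal and distal tubule was not tested.

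**Figure D3:**
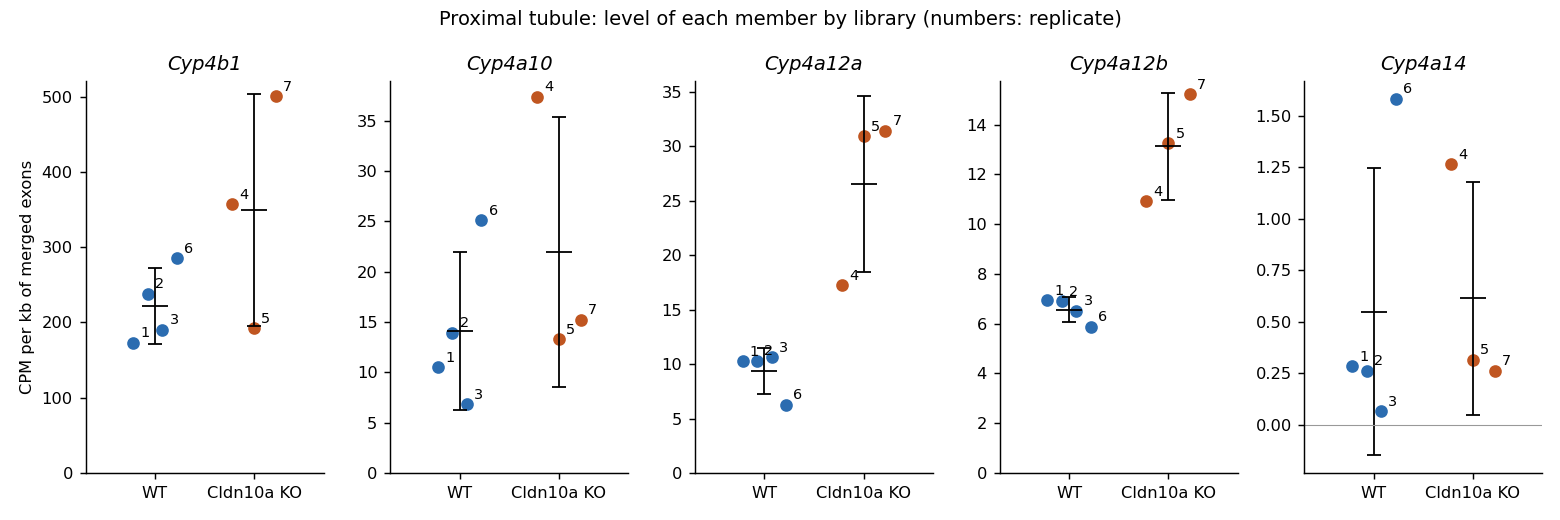
Level of each member in proximal tubule in CPM per kb of merged exons, by library; numbers beside points are replicates, and the cross bars give the mean and SD (WT n = 4, Cldn10a KO n = 3). Cyp4a12a runs from 17.3 to 31.4 in the knockout and from 6.26 to 10.6 in wild type, without overlap, while Cyp4b1, Cyp4a10 and Cyp4a14 overlap between genotypes.

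In some libraries of each genotype the Cyp4a12 pair and the other Cyp4a genes lay on opposite sides of their group means. Wild-type replicate 6 had the lowest Cyp4a12a (15.2 CPM) and Cyp4a12b (14.1 CPM) of its group and the highest Cyp4a10 (52.9 CPM), Cyp4a14 (4.12 CPM), Cyp4a31 (46.4 CPM) and Cyp4a32 (4.50 CPM). Knockout replicate 4 showed the same arrangement, with the lowest Cyp4a12a (41.8 CPM) and Cyp4a12b (26.2 CPM) and the highest Cyp4a10 (78.9 CPM), Cyp4a14 (3.29 CPM), Cyp4a31 (59.4 CPM) and Cyp4a32 (7.47 CPM) of the 3 knockout libraries. Wild-type replicate 3 had the highest Cyp4a12a and the lowest Cyp4a10, Cyp4a14, Cyp4a31 and Cyp4a32, with Cyp4a12b near its mean (15.6 CPM). Wild-type replicate 2 did not share the pattern, since Cyp4a12a, Cyp4a12b, Cyp4a10, Cyp4a31 and Cyp4a32 all lay above their means there. On the log2(CPM + 0.5) scale Cyp4a10 lay 0.98 above its group mean in wild-type replicate 6 and 0.92 above it in knockout replicate 4, where Cyp4a12a lay at -0.54 and -0.56. The ratio of Cyp4a10 to Cyp4a12a per kilobase accordingly ran from 0.644 to 4.01 among wild-type libraries and from 0.430 to 2.17 among knockout libraries. In wild type Cyp4a10 thus ran from 14.4 to 52.9 CPM, a wider span than that between its group means of 29.7 and 46.3 CPM. The pattern follows the sequence groups only in part, since Cyp4a14 moved with the Cyp4a10 trio while sharing none of its 50-base windows with it.

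**Figure D4:**
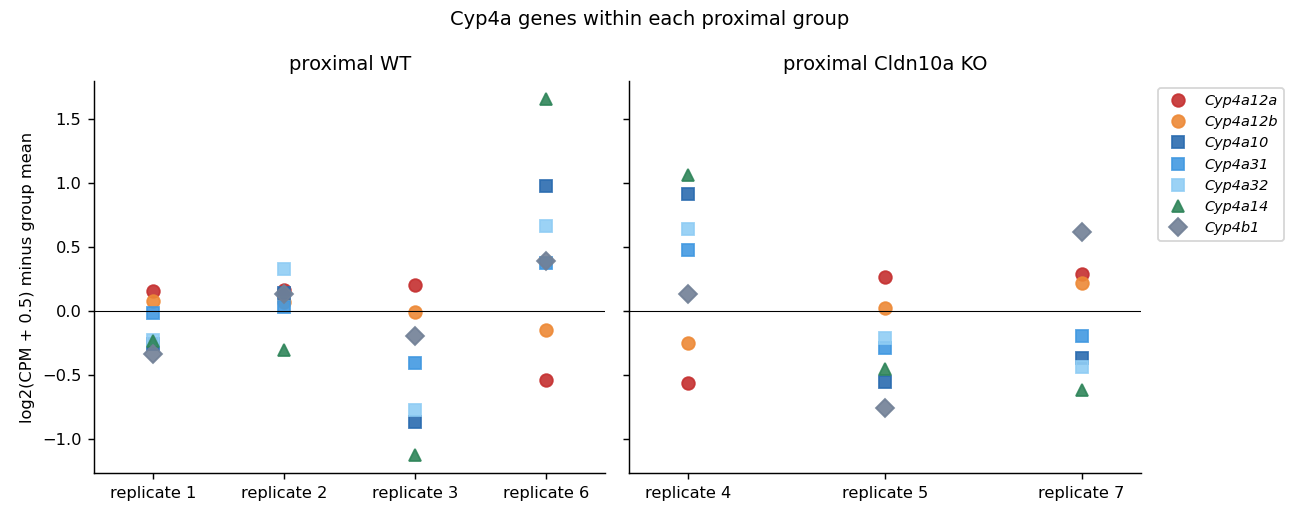
Deviation of log2(CPM + 0.5) from the group mean for 7 Cyp4 genes in each proximal library, wild type left and Cldn10a knockout right. In wild-type replicate 6 and knockout replicate 4 the Cyp4a12 pair lies below its group means and Cyp4a10, Cyp4a14, Cyp4a31 and Cyp4a32 lie above theirs.

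The genes most alike to each member over the 7 proximal libraries, by Pearson r of log2 CPM among 6562 or 6563 candidate genes, are given as a description, since so many candidates over 7 libraries of 2 genotypes yield high values. Nearest to Cyp4b1 were Tiprl (r = 0.979), the dipeptidase gene Pepd (0.971) and Cyb5a (0.963), which encodes the cytochrome b5 that passes electrons to cytochromes P450. Cyb5a ran from 79.9 to 149 CPM over these libraries. Nearest to Cyp4a12a were Tkfc (0.990), an enzyme of fructose use, its own copy Cyp4a12b (0.974) and Trappc12 (0.972), and nearest to Cyp4a12b were Cyp4a12a (0.974), Tkfc (0.969) and Ttc37 (0.965). Cyp4a10 was nearest to Napsa (0.992), an aspartic protease that ran from 6.48 to 57.8 CPM, to Cyp4a31 (0.985) and to Wdfy1 (0.964). Cyp4a14 was nearest to Zfand6 (0.958), Txnip (0.956) and Slc25a46 (0.929).

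The other Cyp4 genes complete the family. Of 22 further family genes and pseudogenes, 7 passed the filter in the proximal contrast and none was called. Cyp4a31 differed by 0.24 ± 0.222 (log2, SE) and Cyp4a32 by 0.79 ± 0.384, and Cyp4b1-ps1 by 0.80 ± 0.212, the last with groups fully apart. Cyp4b1-ps2 differed by 0.18 ± 0.396 and Cyp4f13 by 0.05 ± 0.294. Cyp4f16 went the other way with groups fully apart (-0.96 ± 0.817, 61 counts in the wild-type and 17 in the knockout libraries), and Cyp4v3 was at -0.30 ± 1.018. The filter of this contrast asks for as many libraries as the smaller group has, and for Cyp4f16 only wild-type libraries reached it. That gene thus entered through the group in which it is higher, and nothing is read from its separation. Over all genes 4.44% stood apart upward and 3.54% downward. Between the wild-type segments Cyp4a31 (log2 difference 9.29 ± 0.864 SE), Cyp4a32 (5.19 ± 0.971 SE) and both Cyp4b1 pseudogenes stood higher in every proximal library. These 4 also passed the filter only through proximal tubule and had to differ, so no p is given. Cyp4v3, another fatty acid hydroxylase, ran the other way at 0.198 ± 0.160 CPM in proximal and 2.68 ± 0.407 CPM in distal tubule (SD, n = 4 each; log2 difference -4.14 ± 0.534 SE). Cyp4f16 was also lower in proximal tubule (log2 difference -2.37 ± 0.462 SE). Both Cyp4v3 and Cyp4f16 fell short of the filter on the proximal wild-type libraries alone. They entered through distal tubule, where they are high, so no p is given. Cyp4f13 stood at 2.13 ± 0.446 and 1.86 ± 0.733 CPM (SD, n = 4 each), a difference that did not pass (log2 0.18, limma adjusted p = 0.611).

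Most tested enzymes that act after the Cyp4 hydroxylases were higher in wild-type proximal than distal tubule. Of 10 listed dehydrogenases 8 were tested and called higher, of which Aldh1a1 and Aldh3b1 passed the filter only through proximal tubule and had to differ. The others included Aldh3a2, the fatty aldehyde dehydrogenase (53.9 ± 6.96 against 10.0 ± 1.31 CPM, SD, n = 4 each; log2 difference 2.41, limma adjusted p = 7.66e-10), and Adh1 (log2 difference 3.84, adjusted p = 1.21e-09). Of 16 tested genes of peroxisomal oxidation 13 were called higher and 2 lower, with Slc27a2, a very long-chain fatty acid transporter and ligase, at a log2 difference of 7.90 (limma adjusted p = 7.34e-10). Among 7 genes that supply electrons 4 were higher and 3 lower, the reductase gene Por by a log2 difference of 1.67 (limma adjusted p = 3.33e-06). Ppara itself was higher in proximal tubule at 10.2 ± 2.49 against 1.24 ± 0.584 CPM (SD, n = 4 each; limma adjusted p = 1.36e-06), and of 22 tested PPAR-alpha target genes other than the members 12 were higher, of which Vnn1 passed the filter only through proximal tubule, and 7 lower. Over all genes tested the median log2 difference was -0.02 and 23.6% were called higher. In distal tubule no gene of these lists was called between genotypes. Lpl stood fully apart upward there (34.3 ± 7.94 and 48.8 ± 2.02 CPM, SD, n = 4 each; limma adjusted p = 0.661), as did Cyp2j11 (limma adjusted p = 0.580), and Cyp2j6 stood apart downward (limma adjusted p = 0.661). Over all genes of that distal contrast 3.82% stood fully apart in either direction.

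In the proximal knockout comparison the same lists held few calls. Over all 13229 genes, 0.0983% were called higher, 4.44% stood fully apart upward and 3.54% downward. None of the 9 follow-up enzymes, 7 electron suppliers, 16 peroxisomal genes and 8 genes of PPAR-alpha and its partners was called, with median log2 differences of 0.08, 0.13, 0.09 and -0.04, against -0.01 over all genes. Ppara stood at 10.2 ± 2.49 CPM in wild type (SD, n = 4) and 10.7 ± 0.350 in the knockout (SD, n = 3). Of 23 tested PPAR-alpha targets 2 were called higher and none lower, with a list median of 0.34, 17 of them above 0 and 7 fully apart upward. The other 6 were below 0, of which Fabp3 stood fully apart downward (log2 difference -1.09, limma adjusted p = 0.329). The 2 called were Lpl, lipoprotein lipase (20.8 ± 9.47 CPM in wild type, SD, n = 4, and 75.4 ± 25.1 in the knockout, SD, n = 3; log2 difference 1.89, limma adjusted p = 0.0269), and the fatty acid transporter gene Cd36 (14.6 ± 11.4 and 70.4 ± 22.5 CPM; log2 difference 2.60, limma adjusted p = 0.0476). With 1 of the 7 libraries left out, Lpl stayed called only without wild-type replicate 2 or knockout replicate 7, and Cd36 only without wild-type replicate 6. Of the peroxisomal genes, Slc27a2 (log2 difference 0.91, limma adjusted p = 0.131), Ehhadh (0.85, 0.173) and Crot (0.78, 0.292) stood fully apart upward, and none was past the threshold. Of 11 tested genes of other arachidonic acid routes none was called, with 7 above and 4 below 0 (median 0.12). Cyp2j13 (log2 difference 0.75, limma adjusted p = 0.135) and Cyp2j11 (1.39, 0.172) stood apart upward, while Ephx1 (-3.78, 0.589) and Ptgs1 (0.91, 0.742) overlapped. Ephx1 was near the floor, at 0.755 ± 0.580 CPM in wild type (SD, n = 4) and 0.214 ± 0.370 in the knockout (SD, n = 3). The size of its log2 difference is therefore uncertain.

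Summed markers of position along the proximal tubule differed between the genotypes beside these values, although few single markers were called. Over all genes, 4.44% stood apart upward and 3.54% downward. The 6 markers of the early segment (S1) summed to 1222 to 1541 CPM in wild type and 905 to 1068 CPM in the knockout, with 6 of 6 below 0 (median log2 difference -0.59), 3 fully apart downward and none called. The 11 markers of the straight segment (S3) summed to 294 to 500.2 CPM in wild type and 828.7 to 950.3 CPM in the knockout, without overlap. Of the 8 tested, 7 were above 0 (median 1.01), 5 were fully apart upward and 2 were called, Atp11a (log2 difference 1.62, limma adjusted p = 0.0269) and Acy3 (1.12, limma adjusted p = 0.0381). Acy3 lost its call whichever library was left out, and Atp11a kept it only without wild-type replicate 2, 3 or 6. In the wild-type group alone, Cyp4a10 followed the S3 sum in order, with replicate 3 lowest, then 1, then 2, then 6, while the Cyp4a12 pair was lowest in replicate 6, where the S3 sum was highest. In the knockout group that order did not hold, since replicate 4 had the highest Cyp4a10 and the lowest S3 sum. Serpina1f, one of the S3 markers, had no count in the wild-type proximal libraries. The part of tubule position in the difference of Cyp4a12a and Cyp4a12b was not tested.

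Genes with a known male excess in this segment summed to 884 to 1983 CPM in wild type and 2159 to 3533 CPM in the knockout. Of the 10 tested, 10 were above 0 (median log2 difference 1.06), 5 were fully apart upward and none was called, Slco1a1 being nearest (log2 difference 3.78, limma adjusted p = 0.0572). Over all genes 4.44% stood apart upward and 0.0983% were called higher. Genes with a known female excess summed to 55.8 to 96.4 CPM and 84.8 to 143 CPM, and of 6 tested the transporter gene Abcc4 was called higher (log2 difference 1.24, limma adjusted p = 0.0381), a call kept in 1 of the 7 leave-outs, that of knockout replicate 4. The male list and the S3 list share Slc7a13 and Cyp7b1, so they are not separate measures. The labels do not give the sex of the animals, and its part in these values was not tested.

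**Figure D5:**
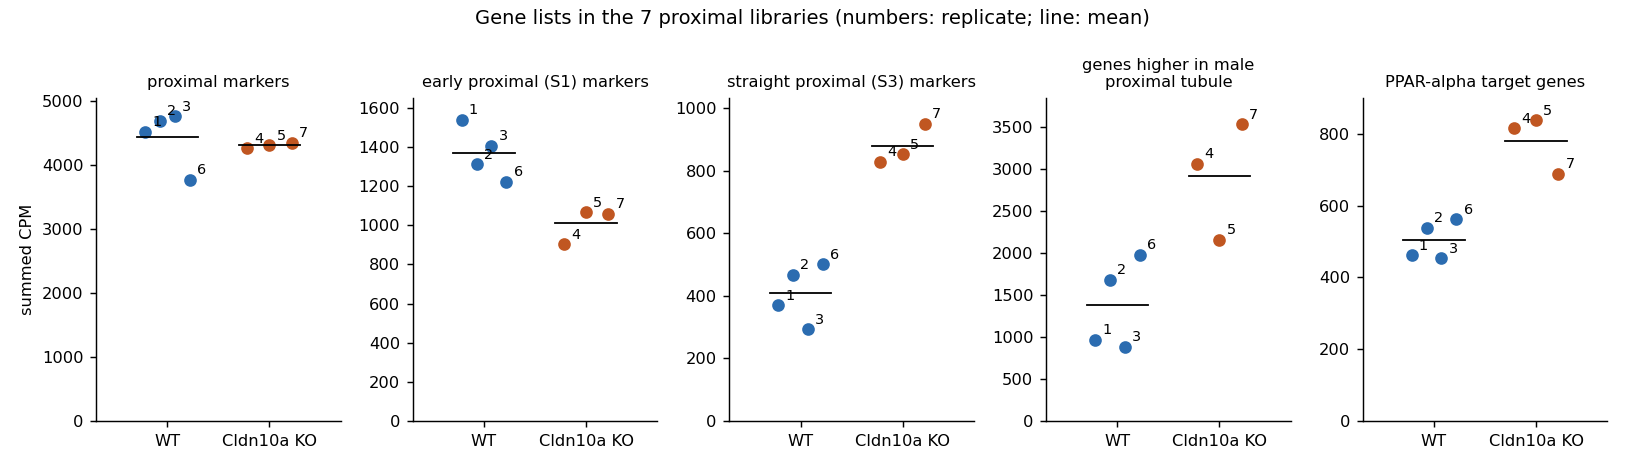
Summed CPM of 5 gene lists in the 7 proximal libraries; numbers are replicates and lines are group means. The S3 markers (294 to 500.2 against 828.7 to 950.3 CPM), the male-high genes and the PPAR-alpha targets lie higher in every knockout library and the S1 markers lower, while the general proximal markers overlap.

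Markers of other cell types were low in the proximal libraries. The 8 endothelial markers summed to 10.8 to 22.2 CPM in wild type and 18.7 to 32.9 CPM in the knockout, with 8 of 8 above 0 (median log2 difference 0.61) and none called. The 8 immune markers summed to 0.205 to 0.985 CPM in wild type and 0.947 to 2.09 CPM in the knockout, with Cd3e at 0 in all 7 libraries, and the 5 thick ascending limb markers to at most 1.37 CPM. Distal, connecting tubule and intercalated cell markers held no call, with median log2 differences of -0.54, -0.49 and -0.31 over the 6, 2 and 1 genes tested. In pooled tubules fewer cells of a type and less RNA per cell cannot be told apart.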

How the data were processed

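RNA-seq of 15 mouse kidney tubule libraries was used. The authors deposited whole-number counts per Ensembl gene, with no normalisation visible in the values. Per the submitters' processing notes, CASAVA 1.8, STAR 2.5, DESeq2 1.24.0 and GRCm38 were used, and the sources name no counting program or strand setting. Per the labels' protocols, libraries were made with Nextera XT, a kit that does not mark strand. The authors deposited a table of log2 fold changes and p-values for distal tubule, of which 2 rows are quoted and no other value is used.

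Of 54752 genes, 54723 had a symbol in GENCODE M21, and 24945 had no count. All columns of the count table were matched to samples by the library number in the labels. Counts were scaled by the trimmed mean of M values and given as CPM, so a CPM here refers to the scaled and not the raw total. A gene was tested with at least 15 counts in all and a level worth 10 counts in a library of median total, reached by a number of libraries equal to the size of the smaller group. Tests were limma-voom (limma 3.58.1, R 4.3.3), fitted on the libraries of each comparison over all tested genes, with Benjamini-Hochberg adjustment and a threshold of 0.05. Single values were tested by exact permutation. The library totals ran from 28729339 to 51764746 counts, and intervals from a count of 0 (3 counts) cover counting error only.

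The members and the gene lists were chosen with earlier results of these data known, so they are no independent support for a direction. Named were the members, the other Cyp4 genes past the filter, up to 4 genes of each list with the smallest p, and the 3 genes most like each member. Transcript windows, coding sequences and identities came from GENCODE M21 (Biopython 1.88). Wild-type proximal and distal libraries share the replicate numbers 1, 2 and 3, and the main fit has no block. Alternatives were another scaling, scaling on protein-coding genes, other filters, sample weights, a joint fit, another prior count, the Cyp4a12 copies summed, a replicate block, and leaving out libraries. Leaving out the distal knockout libraries with Cldn10 counts was added after seeing the data. The authors' proximal comparison was not used, because it would repeat the contrast that chose the members.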

Additional observations from a re-analysis of the deposited data

Results flagged for a closer look

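In each of 15 groups of 4 libraries, 3 groups for each member, the highest and lowest value were compared with the rest. For normally spread values chance alone marks about 1 in 20 such groups. That rate does not hold for counts near 0, as in distal tubule, where a single count among zeros is always marked. Nothing is therefore read from the number of groups marked. In wild-type proximal tubule, replicate 6 had the lowest Cyp4a12a, 15.2 CPM against 24.9 to 25.7 CPM in the other libraries, and the highest Cyp4a14, 4.12 CPM against 0.171 to 0.744 CPM. In knockout distal tubule, replicate 8 had the lowest Cyp4a12b at 0.0461 CPM (2 counts), with 0.174 to 0.184 CPM in the others, and replicate 6 had the highest Cyp4a14 at 0.0291 CPM, which is 1 count where the other libraries had 0.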

How the results depend on the processing

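In proximal tubule the members were chosen on the genotype contrast, so their count past its threshold, 2, is a description and no test of them. It was 1 with the Cyp4a12 copies summed, 0 without the libraries of the other number series, and 0 to 1 with 1 library left out, and it stayed at 2 under the 7 other alternatives. All calls over the genome there numbered 22, against 80 with no filter, 36 with a stricter filter, 40 with sample weights, 120 in 1 fit of all 15 libraries and 2 to 18 with 1 library left out. In distal tubule no member was called under any alternative, with 4 calls of other genes when no filter was used and 7 without the knockout libraries that hold Cldn10 counts. Between the wild-type segments 4 to 5 members were past the threshold, of which only Cyp4b1 passed the filter on the distal wild-type libraries alone. The others entered only through the group in which they are high. Cyp4a14 missed the threshold without distal replicate 1 (adjusted p = 0.0863) or 4 (0.0847). The replicate block gave 5 members and 5840 calls against 6631. Same-numbered libraries deviated together with r = -0.018, -0.058 and 0.049 over 13616 genes, and those of different number with -0.115 to 0.117. No pairing by number is visible in these values, which cannot exclude that same-numbered libraries share an animal. Cyp4a14 ran from 2.87 to 5.04 (log2) between the segments. No direction of a called member reversed, and scaling moved the median of all genes by at most 0.0489 (log2). Cyp4a10 and Cyp4a14 are limited by depth in distal tubule, where they had 0 to 8 counts a library. The cause of each change was not tested.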
